A study of Homo sapiens with 24 samples.

Results

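The expression of 9 genes of cysteine supply and glutathione turnover was measured by RNA-seq in KYSE450, an established oesophageal squamous cell carcinoma line. The 9 genes were SLC7A11, CTH, CBS, GCLC, GCLM, GSS, GSR, CHAC1 and CHAC2. They were chosen by symbol, and each matched 1 of the 61251 genes in the deposited table. The 24 libraries form 4 groups of 6: chemoresistant DTP, chemoresistant, parental DTP and parental, where DTP stands for drug tolerant persister in the series' description. Every group carries the genotype label WT, was grown in RPMI-1640 medium with fetal bovine serum, and carries the treatment label "No treatment". The titles of the chemoresistant groups add DDP to the name of the line. Beyond DDP, which they do not spell out, the labels name no drug, dose or exposure for the resistant or persister cells, and give no number of clones. They do not state whether replicates are independent cultures, and p-values then measure only the spread between these libraries, which may be technical. The series title names GDF15, GFRAL, NRF2, GCLC and cuproptosis, a copper-dependent cell death, and the comparisons ask how the persister state and chemoresistance go with glutathione gene expression.

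Glutathione is a tripeptide of glutamate, cysteine and glycine, and the main small thiol with which cells buffer oxidants, electrophiles and metals. Cysteine, usually the scarce building block, enters as cystine through the carrier SLC7A11 or is made from homocysteine by CBS and CTH. Glutamate-cysteine ligase, made of the catalytic subunit GCLC and the modifier subunit GCLM, joins glutamate to cysteine, and GSS adds glycine. GSR returns oxidised glutathione to its reduced form, while CHAC1 and CHAC2 break glutathione down in the cytosol. NRF2, a transcription factor stabilised by oxidants and electrophiles, is known to drive SLC7A11, GCLC, GCLM and GSR, and ATF4, a factor of the amino acid and endoplasmic reticulum stress response, is known to drive SLC7A11, CTH and CHAC1.

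The reads recovered from the FPKM values (fragments per kilobase of transcript, scaled to the mapped total of the library) numbered between 14947379 and 37989445 per library, so that 3 reads correspond to between 0.079 and 0.201 CPM, the same scaling without gene length, and bound counting error only. Of the 9 genes, those with the fewest reads in any library were CHAC1 with 41 and CTH with 75, both in parental libraries. Of the 8 squamous epithelial markers, 8 averaged at least 1 FPKM in every group, and they summed to between 5300 and 6280 FPKM in chemoresistant DTP, 4470 and 5300 in chemoresistant, 2630 and 3250 in parental DTP, and 4500 and 5010 in parental libraries. The summed FPKM of 5 leukocyte markers did not exceed 2.62 in any library, CD3E was at 0 in every group, and 3 endothelial markers summed to at most 1.11 FPKM. The 6 fibroblast markers summed to between 2.7 and 14.2 FPKM in chemoresistant DTP libraries, 4.37 and 19.2 in chemoresistant libraries, 1.42 and 5.78 in parental DTP libraries, and 2.76 and 7.38 in parental libraries. The summed FPKM of 4 nuclear-retained RNAs ranged from 41.3 to 58.1 in chemoresistant DTP libraries, from 31.9 to 51.4 in chemoresistant libraries, from 51.4 to 60.8 in parental DTP libraries and from 25 to 41.7 in parental libraries. The part of these marker differences in the results was not tested.

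Of the 9 genes, 3 formed a group that was higher in the other 3 groups than in parental cells by at least 7.59-fold in means (SLC7A11, CTH and CHAC1). GCLC was higher in all libraries of the chemoresistant line than in any of the parental line. GSR and CHAC2 had persister changes of opposite sign in the 2 lines. GCLM, GSS and CBS are not among these genes. All 9 genes passed the filter on low values, and each averaged above 1 FPKM in all 4 groups. In chemoresistant DTP against chemoresistant libraries, 7 of the 9 genes rose and 0 fell at an adjusted p under 0.05 (limma), where 20.5% of all 13729 genes tested were called higher and 27.4% lower. GSS and CBS made up the rest. In parental DTP against parental libraries, 7 rose and 2 fell, against a background of 45.8% higher and 19.7% lower. The median log2 fold change of the 9 genes was 0.66 in the chemoresistant line, against -0.02 over all genes tested, and 0.7 in the parental line, against 0.14 over all genes tested. The 6 libraries of one group lay wholly beyond the 6 of the other for 6 of the 9 genes in the chemoresistant line, where 27.8% of all genes did so, and for 9 of 9 in the parental line, where 45.8% did so.

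Chemoresistant against parental libraries gave 6 genes higher and 2 lower, with 48.2% of all genes higher and 29.4% lower. The libraries did not overlap for 7 of the 9 genes, against 61.8% of all genes. Chemoresistant DTP against parental DTP libraries gave 6 higher and 1 lower, with 29.5% of all genes higher and 32.3% lower, and 5 of 9 genes without overlap against 36.2%. The median log2 fold change of the 9 genes was 0.5 for chemoresistant against parental libraries, with 0.14 over all genes, and 0.53 between the DTP groups, with -0.02 over all genes.

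The sizes of the changes depended on how libraries were scaled, and for some of the smaller ones so did the call or direction. Relative log expression scaling, which sets the median gene ratio of each library to 1, moved the all-gene median of log2 fold changes by -0.19 for parental DTP against parental libraries, by -0.22 for chemoresistant against parental libraries, and by at most 0.05 for the other comparisons named so far. Upper-quartile scaling moved these medians by -0.31 and -0.38. Over all genes, 6283 were higher and 2711 lower in parental DTP against parental libraries on the deposited scale, 3837 and 5170 under relative log expression scaling, and 2827 and 6839 under upper-quartile scaling. For chemoresistant against parental libraries the split was 6614 higher and 4031 lower as deposited, 4762 and 5961 under relative log expression scaling, and 3674 and 7435 under upper-quartile scaling. For chemoresistant DTP against chemoresistant libraries it was 2820 and 3766 as deposited, 3748 and 3060 under relative log expression scaling, and 4745 and 2379 under upper-quartile scaling. Scaling changed a call or a direction for GSS, CBS, GCLM, GCLC and CHAC2, and the values are given with each gene.

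**Figure D1:**
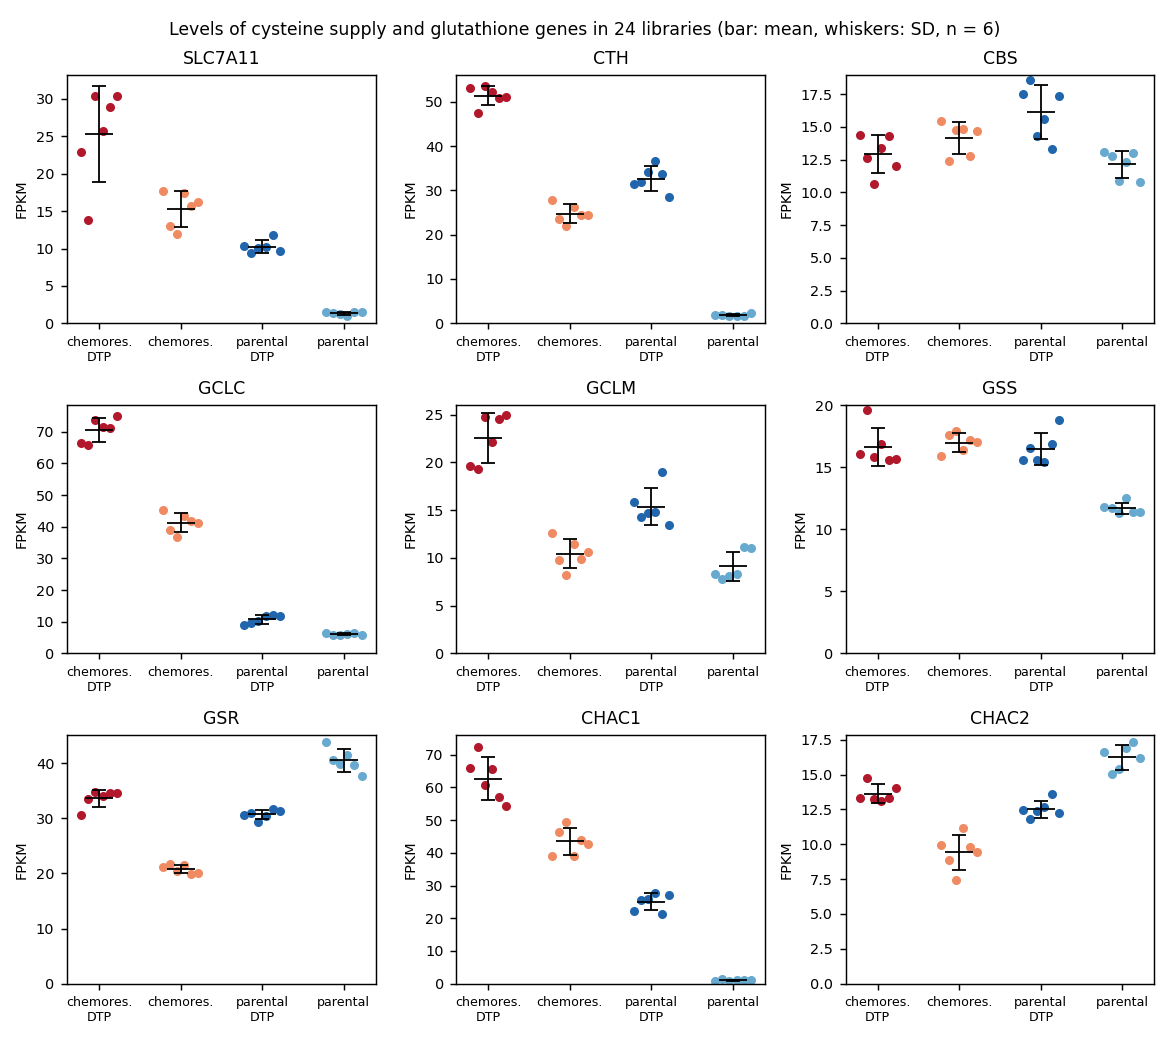
FPKM of each of the 9 genes (vertical axis, starting at 0) in 24 libraries, with 1 point per library, a bar at the mean of 6 and whiskers of 1 SD. SLC7A11, CTH and CHAC1 average at least 10.2 FPKM in the other 3 groups and between 1.04 and 1.85 FPKM in parental libraries, GCLC separates the lines, and GSR and CHAC2 are lowest in chemoresistant and highest in parental libraries.

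SLC7A11 (ENSG00000151012, chr4:138164097-138242349, minus strand, GRCh38) is the cystine-importing subunit of system xc-, which exchanges cystine for glutamate. Its lowest, median and highest values were 13.8, 27.3 and 30.4 FPKM in chemoresistant DTP libraries, 11.9, 15.9 and 17.7 in chemoresistant libraries, 9.45, 10.1 and 11.8 in parental DTP libraries, and 0.998, 1.43 and 1.53 in parental libraries. Parental DTP libraries were all above all parental ones, with a 7.59-fold ratio of means and a log2 fold change of 2.26 (SE 0.135, adjusted p = 6.35e-13). Chemoresistant DTP libraries averaged 1.66 times the chemoresistant mean (log2 fold change 0.66, adjusted p = 0.000279), but the 2 groups overlapped because chemoresistant DTP replicate 2, at 13.8 FPKM, lay within the chemoresistant range. Chemoresistant libraries exceeded parental ones by a log2 fold change of 2.79 (SE 0.135, adjusted p = 2.56e-15), and chemoresistant DTP exceeded parental DTP libraries by 1.19 (adjusted p = 5.02e-08). From high to low the means ran chemoresistant DTP, chemoresistant, parental DTP and parental, and each neighbouring pair differed at an adjusted p under 0.05. For the 2 comparisons across both line and state that this order uses, 66.5% of all genes were called for parental DTP against chemoresistant and 73.8% for chemoresistant DTP against parental libraries. An antisense transcript, SLC7A11-AS1, shares 865 bases, or 8.97%, of the SLC7A11 exons and averaged 0.147 FPKM, and the sources used here do not state whether reads were assigned by strand. In bulk RNA, fewer cells expressing a gene and less of its RNA per cell cannot be told apart, here or for the genes that follow.

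CTH (ENSG00000116761, chr1:70411218-70439851, plus strand), which splits cystathionine to release cysteine, had the largest persister change of the supply genes in both lines. It lay at 47.4, 51.7 and 53.5 FPKM (lowest, median, highest) in chemoresistant DTP libraries, 22, 24.4 and 27.9 in chemoresistant libraries, 28.4, 32.8 and 36.6 in parental DTP libraries, and 1.58, 1.81 and 2.39 in parental libraries. None of the 4 groups overlapped another. The ratio of means was 2.07 in the chemoresistant line (log2 fold change 1.03, SE 0.065, adjusted p = 4.02e-12) and 17.7 in the parental line (log2 fold change 3.56, SE 0.065, adjusted p = 9.39e-23). Chemoresistant cells held 13.4 times the parental mean (log2 fold change 3.18, adjusted p = 1.21e-22), and chemoresistant DTP cells 1.57 times the parental DTP mean (0.64, adjusted p = 6.44e-09). Unlike SLC7A11, CTH had a higher mean in parental DTP than in chemoresistant libraries, with a log2 fold change of 0.39 (adjusted p = 1.31e-05).

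CBS (ENSG00000160200, chr21:43053191-43076943, minus strand), which condenses homocysteine with serine one step before CTH, stayed in a narrow band. Its values were 10.6, 13 and 14.4 FPKM in chemoresistant DTP libraries, 12.4, 14.7 and 15.5 in chemoresistant libraries, 13.3, 16.5 and 18.6 in parental DTP libraries, and 10.8, 12.6 and 13.1 in parental libraries. Only the parental pair did not overlap. The log2 fold change for parental DTP against parental libraries was 0.38 (SE 0.08, adjusted p = 0.000245) as deposited, 0.13 (adjusted p = 0.183) under relative log expression scaling and -0.01 (adjusted p = 0.947) under upper-quartile scaling. Set against the median of all genes, these were 0.24, 0.19 and 0.16. For chemoresistant DTP against chemoresistant libraries the estimate was -0.13 (adjusted p = 0.201). For chemoresistant against parental libraries it was 0.21 as deposited (adjusted p = 0.0238), -0.06 under relative log expression scaling (adjusted p = 0.551) and -0.25 under upper-quartile scaling (adjusted p = 0.0128). That call was also lost without parental replicate 3 (0.18, adjusted p = 0.0597), without parental replicate 6 (0.18, adjusted p = 0.0616) or without chemoresistant replicate 1 (0.18, adjusted p = 0.0562). Chemoresistant DTP libraries were lower than parental DTP libraries, with a log2 fold change of -0.3 (adjusted p = 0.00246) and overlapping ranges. Next to each other in order of mean, chemoresistant DTP and parental, chemoresistant DTP and chemoresistant, and parental DTP and chemoresistant did not differ at this threshold (adjusted p = 0.386, 0.201 and 0.0627).

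CBS levels carry a further limit, because the annotation holds a near-identical copy, CBSL, and the counting could divide reads between them. CBSL took between 3.6% and 18.6% of the combined reads across libraries. With both summed, the estimate was 0.37 for parental DTP against parental libraries (adjusted p = 0.00135) and 0.17 for chemoresistant against parental libraries (adjusted p = 0.105), so the second call was lost.

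Glutamate-cysteine ligase is the first and rate-limiting step of glutathione synthesis. GCLC (ENSG00000001084, chr6:53497341-53616970, minus strand), its catalytic subunit, lay at 65.9, 71.3 and 75 FPKM in chemoresistant DTP libraries, 36.8, 41.5 and 45.4 in chemoresistant libraries, 9.03, 11 and 12.2 in parental DTP libraries, and 5.7, 5.99 and 6.54 in parental libraries. No groups overlapped, and each neighbouring pair in this order differed at an adjusted p under 0.05. The line difference exceeded the persister difference. Chemoresistant libraries held 6.8 times the parental mean (log2 fold change 2.58, SE 0.063, adjusted p = 3.61e-21) and chemoresistant DTP libraries 6.56 times the parental DTP mean (2.61, adjusted p = 8.57e-21). The persister ratios of means were 1.71 in the chemoresistant line (0.76, adjusted p = 5.99e-10) and 1.77 in the parental line (0.73, adjusted p = 4.68e-10). Those log2 fold changes were 0.82 and 0.50 under relative log expression scaling, and 0.89 and 0.37 under upper-quartile scaling. A long noncoding gene on the same strand, AL033397.1, shares 529 bases, or 6.12%, of the GCLC exons and averaged 1.676 FPKM, so a part of its reads cannot be told from those of GCLC.

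GCLM (ENSG00000023909, chr1:93885205-93909456, minus strand), the subunit that raises the catalytic efficiency of GCLC, was not called between chemoresistant and parental libraries in the fit to the deposited values, unlike its partner. Its values were 19.3, 23.4 and 24.9 FPKM in chemoresistant DTP libraries, 8.25, 10.3 and 12.6 in chemoresistant libraries, 13.4, 14.8 and 19 in parental DTP libraries, and 7.84, 8.32 and 11.1 in parental libraries. Both persister groups lay wholly above their own line, while chemoresistant and parental libraries overlapped. The ratio of means was 2.16 in the chemoresistant line (log2 fold change 1.04, SE 0.1, adjusted p = 7.3e-09) and 1.68 in the parental line (0.7, SE 0.1, adjusted p = 1.65e-06). Chemoresistant against parental libraries gave 0.18 (SE 0.1, adjusted p = 0.106) as deposited, -0.08 (adjusted p = 0.37) under relative log expression scaling and -0.27 (adjusted p = 0.00211) under upper-quartile scaling. Set against the median of all genes, these were 0.04, -0.00 and -0.03. The deposited-scale estimate passed the threshold without parental replicate 5 (0.23, adjusted p = 0.0395), without parental replicate 6 (0.23, adjusted p = 0.042) or without chemoresistant replicate 3 (0.24, adjusted p = 0.0328). It also passed with each library's trend of deviations with gene GC content removed and the replicate number as a block (0.18, adjusted p = 0.0019). That removal acts on deviations from the group means, so it cannot move the estimate and narrows the spread. The test does not count the trend terms removed, so no weight is put on this call. The rank correlation of library deviations with GC content ran from -0.64 to 0.655 over the 24 libraries, and was -0.54 and -0.559 in parental replicates 5 and 6 but positive in the other parental libraries. Its part in the GCLM values was not tested. Chemoresistant DTP exceeded parental DTP libraries by 0.53 (adjusted p = 7.63e-05).

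The promoter windows of the ligase pair are shown because both subunits rose in both persister groups while GCLC alone of the pair had no overlap between chemoresistant and parental libraries. Windows run from 250 bases before to 50 bases after the annotated start, as RefSeq gives them for GRCh38.p14, and are written in the direction of the gene; GCLC is at chr6:53545052-53545351 and GCLM at chr1:93909381-93909680, both on the minus strand. Capitals mark a match on the opposite strand to TGACNNNGC, the core of the antioxidant response element that NRF2 binds.
GCLC: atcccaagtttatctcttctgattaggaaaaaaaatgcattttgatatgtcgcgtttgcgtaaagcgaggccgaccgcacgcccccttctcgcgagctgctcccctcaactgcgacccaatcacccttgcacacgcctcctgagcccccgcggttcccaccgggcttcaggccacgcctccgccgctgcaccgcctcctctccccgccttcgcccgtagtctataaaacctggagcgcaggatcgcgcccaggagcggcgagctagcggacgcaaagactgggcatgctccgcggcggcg
GCLM: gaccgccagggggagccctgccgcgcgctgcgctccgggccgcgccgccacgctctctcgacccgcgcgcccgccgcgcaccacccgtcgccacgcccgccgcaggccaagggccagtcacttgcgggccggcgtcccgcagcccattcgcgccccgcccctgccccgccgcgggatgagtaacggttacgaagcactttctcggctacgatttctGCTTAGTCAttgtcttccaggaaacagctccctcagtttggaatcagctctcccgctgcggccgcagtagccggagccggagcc
The GCLM match reads TGACTAAGC on its own strand and begins 34 bases before the start. The letters TGACNNNGC are not in the GCLC window, which says nothing of bases outside it. On either strand, these letters occur in 13.3% of 35116 RefSeq windows of the same 300 bases. Windows were found for 6 of the 9 genes, 9 windows in all, and the only other match to TGACNNNGC was in a CBS window, 83 bases before its start. TGACNNNGC and the second motif searched, TGATGNAA, share no matched bases in these windows.

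GSS (ENSG00000100983, chr20:34928433-34956027, minus strand), which completes glutathione by adding glycine, was higher in the other 3 groups than in parental libraries. It lay at 15.6, 16 and 19.6 FPKM in chemoresistant DTP libraries, 15.9, 17.1 and 17.9 in chemoresistant libraries, 15.5, 16.1 and 18.9 in parental DTP libraries, and 11.4, 11.6 and 12.5 in parental libraries. The first 3 groups overlapped one another, and all of their libraries were above all parental ones. Parental DTP exceeded parental libraries by 0.46 (SE 0.052, adjusted p = 4.81e-08) as deposited, by 0.21 (adjusted p = 0.011) under relative log expression scaling and by 0.07 (adjusted p = 0.432) under upper-quartile scaling. Chemoresistant exceeded parental libraries by 0.5 (adjusted p = 4.73e-09), 0.24 (adjusted p = 0.00408) and 0.04 (adjusted p = 0.624) on the same 3 scales. Set against the median of all genes, the parental persister change was 0.32, 0.27 and 0.24, and the line difference 0.36, 0.31 and 0.28. Chemoresistant DTP against chemoresistant libraries gave -0.03 (SE 0.052, adjusted p = 0.619), and chemoresistant DTP against parental DTP libraries gave 0.01 (SE 0.052, adjusted p = 0.877).

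GSR (ENSG00000104687, chr8:30678061-30727999, minus strand), the NADPH-dependent reductase of oxidised glutathione, ran in opposite directions in the 2 lines. Its values were 30.6, 34.2 and 34.7 FPKM in chemoresistant DTP libraries, 19.9, 20.8 and 21.7 in chemoresistant libraries, 29.3, 30.7 and 31.7 in parental DTP libraries, and 37.7, 40.2 and 43.9 in parental libraries. The 2 DTP groups overlapped each other and lay between the chemoresistant libraries below and the parental libraries above. GSR rose in chemoresistant DTP against chemoresistant libraries (log2 fold change 0.67, SE 0.038, adjusted p = 6.64e-13) and fell in parental DTP against parental libraries (-0.39, SE 0.038, adjusted p = 4.44e-09). The parental estimate was -0.64 under relative log expression and -0.79 under upper-quartile scaling. Chemoresistant libraries held 0.514 times the parental mean (-0.93, adjusted p = 9.67e-17). Between the DTP groups the estimate was 0.13 (adjusted p = 0.00621).

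CHAC1 (ENSG00000128965, chr15:40952962-40956519, plus strand), the stress-inducible gamma-glutamylcyclotransferase that cleaves glutathione, had the widest range of the 9 genes. It lay at 54.2, 63 and 72.4 FPKM in chemoresistant DTP libraries, 39.1, 43.4 and 49.3 in chemoresistant libraries, 21.4, 25.7 and 27.8 in parental DTP libraries, and 0.837, 0.998 and 1.46 in parental libraries. No 2 groups overlapped. The ratio of means was 1.44 in the chemoresistant line (log2 fold change 0.52, SE 0.08, adjusted p = 1.08e-05) and 24.1 in the parental line (3.67, SE 0.08, adjusted p = 2.78e-21). Chemoresistant libraries held 41.8 times the parental mean (4.45, adjusted p = 1.37e-23), and chemoresistant DTP libraries 2.51 times the parental DTP mean (1.29, adjusted p = 8.53e-13). With the low parental level, log2 of FPKM + 1 understates these changes.

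The CHAC1 promoter is shown because, of the 9 genes, CHAC1 had the largest log2 fold changes against parental libraries. In chemoresistant DTP against chemoresistant libraries its change of 0.52 was below the 1.04 of GCLM. The window is RefSeq's for GRCh38.p14, chr15:40953221-40953520, plus strand, and the capitals mark a match on the opposite strand to TGATGNAA, the letters of a composite element bound by ATF4 with a C/EBP factor.
CHAC1: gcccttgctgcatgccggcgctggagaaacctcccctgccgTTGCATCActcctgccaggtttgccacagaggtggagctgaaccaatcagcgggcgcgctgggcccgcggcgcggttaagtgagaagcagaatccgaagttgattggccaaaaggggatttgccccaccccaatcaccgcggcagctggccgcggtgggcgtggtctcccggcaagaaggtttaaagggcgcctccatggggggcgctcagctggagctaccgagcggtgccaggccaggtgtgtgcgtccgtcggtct
The match reads TGATGCAA on its own strand and begins 209 bases before the start. On either strand, TGATGNAA occurs in 3.62% of the 35116 windows, and it was in no other window of the 6 genes.

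CHAC2 (ENSG00000143942, chr2:53767792-53775196, plus strand), the constitutive relative of CHAC1 that degrades glutathione slowly, resembled GSR and not CHAC1. Its values were 13.1, 13.3 and 14.8 FPKM in chemoresistant DTP libraries, 7.41, 9.63 and 11.2 in chemoresistant libraries, 11.8, 12.4 and 13.6 in parental DTP libraries, and 15, 16.4 and 17.3 in parental libraries. The DTP groups again overlapped each other and lay between the chemoresistant and parental libraries. CHAC2 rose in the chemoresistant line (log2 fold change 0.49, SE 0.061, adjusted p = 4.24e-07) and fell in the parental line (-0.35, SE 0.061, adjusted p = 2.42e-05). The parental estimate was -0.60 under relative log expression and -0.74 under upper-quartile scaling. Chemoresistant libraries held 0.581 times the parental mean (-0.73, adjusted p = 9.67e-11), and the estimate between the DTP groups was 0.11 (adjusted p = 0.111 as deposited, 0.0267 under relative log expression scaling and 0.0237 under upper-quartile scaling).

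**Figure D2:**
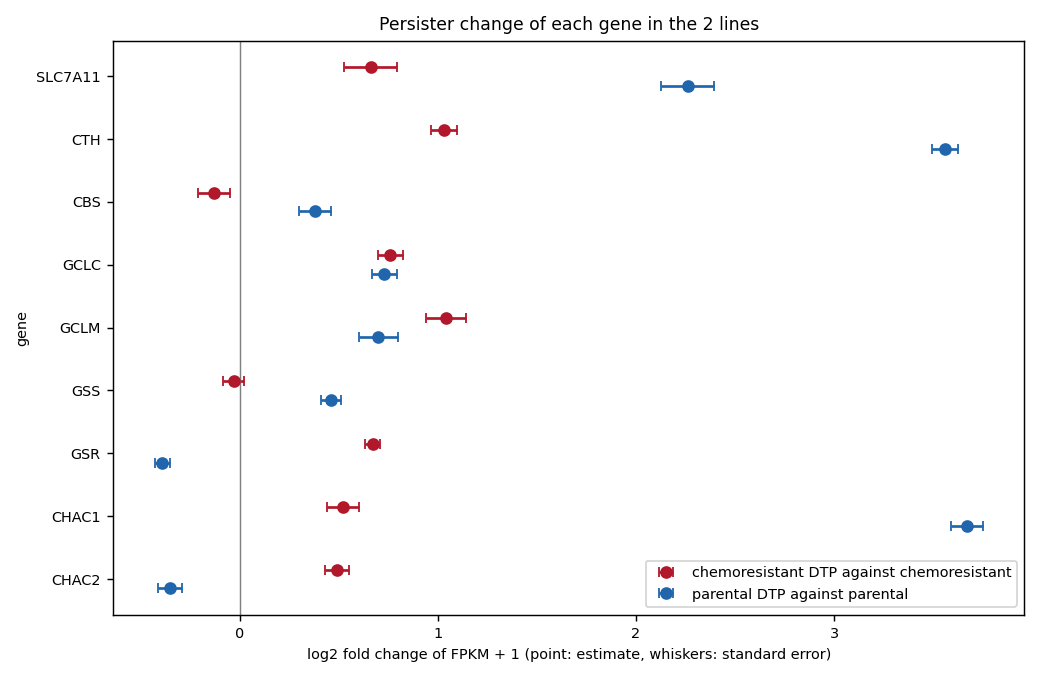
Persister change of each gene as the log2 fold change of FPKM + 1 (horizontal axis), with whiskers of 1 standard error, for chemoresistant DTP against chemoresistant (upper point) and parental DTP against parental libraries (lower point). GSR and CHAC2 lie on opposite sides of 0 in the 2 lines, and CHAC1, CTH and SLC7A11 lie far to the right in the parental line. GCLC nearly coincides on the deposited scale (0.76 and 0.73) but not under upper-quartile scaling (0.89 and 0.37). The parental CBS change is at 0.38 here and at -0.01 under upper-quartile scaling.

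The difference between the persister changes of the 2 lines was tested directly, as the chemoresistant line minus the parental line. It passed for 8 of the 9 genes, 3 with a positive and 5 with a negative difference, where 20.5% of all genes were positive and 43.4% negative. Over all genes the split was 2812 positive and 5952 negative as deposited, 5114 and 3892 under relative log expression scaling, and 6886 and 2850 under upper-quartile scaling, and these scalings moved the median of all genes by 0.25 and 0.41 from -0.17. The largest differences were for CHAC1 at -3.16 (SE 0.114), CTH at -2.54 (SE 0.091) and SLC7A11 at -1.6 (SE 0.191), with adjusted p = 6.83e-17, 6.83e-17 and 1.06e-07. These 3 genes also had the lowest parental levels. GSR differed by 1.05 (SE 0.054, adjusted p = 4.19e-14) and CHAC2 by 0.85 (SE 0.087, adjusted p = 8.71e-09). All 5 kept their sign and call under both scalings.

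For the ligase subunits the difference of persister changes depended on the scaling. GCLC gave 0.03 (SE 0.089, adjusted p = 0.76) as deposited, 0.32 (adjusted p = 0.00102) under relative log expression scaling and 0.53 (adjusted p = 5.85e-06) under upper-quartile scaling, and 0.20, 0.24 and 0.28 when set against the median of all genes. GCLM gave 0.35 (SE 0.142, adjusted p = 0.0358), 0.64 (adjusted p = 2.22e-05) and 0.84 (adjusted p = 1.7e-07), and 0.51, 0.56 and 0.60 against the median. On the deposited scale the GCLM call was lost when any of 12 of the 24 libraries was left out, with adjusted p between 0.0502 and 0.0699. These were parental replicates 5 and 6, parental DTP replicates 2, 3, 4 and 6, chemoresistant replicates 2, 3 and 5, and chemoresistant DTP replicates 3, 5 and 6. It was also lost with no filter on low values (0.35, adjusted p = 0.0785). GSS gave -0.49 (adjusted p = 3.15e-06), -0.19 (adjusted p = 0.102) and 0.02 (adjusted p = 0.897) on the 3 scales. CBS gave -0.5 (adjusted p = 0.000452), -0.20 (adjusted p = 0.156) and 0.00 (adjusted p = 0.978).

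Ratios between 2 of the genes within a library do not depend on library scaling, apart from a pseudocount of 0.1 FPKM used in the tests. They may still vary with a library's GC trend where the 2 genes differ in GC content. The part of that trend was not tested. Across 4 ratios and 4 comparisons, 16 exact two-sided permutation tests of 6 against 6 libraries were adjusted together, and the smallest p they can give is 0.00216. Of the 16, 14 reached it (adjusted p = 0.00247). GCLC over GCLM averaged 3.15 ± 0.224 in chemoresistant DTP, 3.98 ± 0.317 in chemoresistant, 0.707 ± 0.11 in parental DTP and 0.677 ± 0.0947 in parental libraries (SD, n = 6 each). In FPKM, the catalytic subunit exceeded the modifier in every library of the chemoresistant line. It was below the modifier in every library of the parental line. Which gene is above depends on the lengths that the FPKM values imply, 8618 bases for GCLC and 5426 for GCLM. By recovered reads, parental replicate 1 held 1265 for GCLC and 1018 for GCLM. Differences of a ratio between groups do not depend on these lengths, apart from the pseudocount. The log2 ratio was lower by an estimate of -0.33 in chemoresistant DTP against chemoresistant libraries (exact permutation adjusted p = 0.00247), whereas parental DTP against parental libraries gave 0.06 (exact permutation adjusted p = 0.69).

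GCLC over GSS, the first step over the second, averaged 4.29 ± 0.52 in chemoresistant DTP, 2.44 ± 0.288 in chemoresistant, 0.654 ± 0.0756 in parental DTP and 0.519 ± 0.0355 in parental libraries (SD, n = 6 each). The persister difference in log2 ratio was 0.81 in the chemoresistant line and 0.32 in the parental line. CTH over CBS, the second step of transsulfuration over the first, averaged 4.03 ± 0.549 in chemoresistant DTP, 1.76 ± 0.159 in chemoresistant, 2.06 ± 0.391 in parental DTP and 0.154 ± 0.0342 in parental libraries. In FPKM, CTH was above CBS in every library of the other 3 groups, with a lowest ratio of 1.49. It was below CBS in every parental library, with a highest ratio of 0.222. The implied lengths here were 2414 bases for CTH and 6786 for CBS. By recovered reads, chemoresistant replicate 1 held 1605 for CTH and 2497 for CBS. CHAC1 over CHAC2 averaged 4.6 ± 0.453 in chemoresistant DTP, 4.72 ± 1.12 in chemoresistant, 2 ± 0.265 in parental DTP and 0.0644 ± 0.0165 in parental libraries. The parental persister difference was 4.85 on the log2 scale, while chemoresistant DTP against chemoresistant libraries gave -0.01 (exact permutation adjusted p = 0.963), and both genes rose there. Transcript GC content was 62.6% for CHAC1 and 36.7% for CHAC2. The GC correlation was 0.655 and 0.632 in chemoresistant replicates 2 and 3, and -0.64 and -0.629 in replicates 1 and 4. CHAC1 was at 46.5 and 49.3 FPKM in replicates 2 and 3, and at 39.1 in both 1 and 4. CHAC2 was at 8.85 and 7.41 FPKM, against 9.98 and 11.2.

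**Figure D3:**
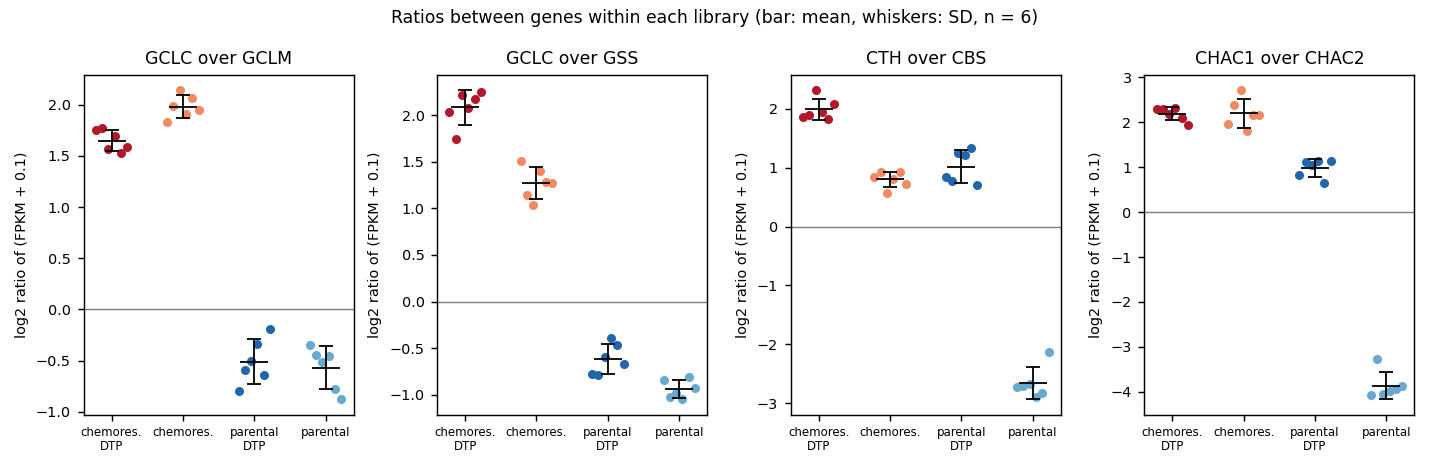
Log2 ratio of (FPKM + 0.1) between 2 genes (vertical axis) within each library, with 1 point per library, a bar at the mean of 6 and whiskers of 1 SD. GCLC over GCLM is above 0 in the chemoresistant line and below 0 in the parental line. CTH over CBS and CHAC1 over CHAC2 are above 0 in the other 3 groups and below 0 in parental libraries. The position of 0 depends on the gene lengths behind the FPKM values.

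Across the 24 libraries, which fall into 4 groups, the log2 levels of CHAC1 and SLC7A11 had a Pearson r of 0.97, CHAC1 and CTH 0.969, SLC7A11 and CTH 0.96, and GSR and CHAC2 0.932. GCLC and GCLM had 0.585. The points share 4 groups, so these coefficients mix differences between groups with variation within them. By the same measure over 10869 protein-coding genes, those most like the members were TRIM16L, SERPINB1 and BLMH for GCLC (0.9964 to 0.9919), KPNA4, KMT5A and ERRFI1 for GCLM (0.9774 to 0.9631), and SDSL, SNHG32 and RELB for GSS (0.9755 to 0.9691). For SLC7A11 they were TACC2, NIBAN1 and MOCOS (0.9921 to 0.9905). For CTH they were CARS1, ATF3 and STC2 (0.9964 to 0.9949), and for CHAC1 VEGFA, JDP2 and GTPBP2 (0.9969 to 0.9953). GSR was most like NAT10, SEH1L and RIOK1 (0.9729 to 0.9675), and CHAC2 most like UTP6, GNL2 and NOP16 (0.9649 to 0.962). No gene tracked CBS as closely, the nearest being SLC29A4, LIMK2 and NKD2 (0.7856 to 0.7717).

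Other genes around the pathway were taken from 6 lists. Of 12 carriers of cystine, cysteine or glutamate, 7 were tested: 4 were higher and 1 lower in chemoresistant DTP against chemoresistant libraries, and 4 higher and 2 lower in parental DTP against parental libraries, with a median log2 fold change of 0.23 in both. SLC1A4, a carrier of small neutral amino acids, averaged 8.01 FPKM in parental DTP and 1.02 in parental libraries (2.16, adjusted p = 7.75e-22), and SLC1A5, a glutamine carrier, averaged 121 and 62.6 (0.95, adjusted p = 3.72e-10). SLC1A1, a glutamate and cysteine importer, averaged 1.4 FPKM in chemoresistant DTP and 2.64 in chemoresistant libraries (-0.6, adjusted p = 4.85e-08). In parental DTP and parental libraries it averaged 0.596 and 0.362 FPKM (0.23, adjusted p = 0.00403), with overlapping ranges and an adjusted p of 0.129 under upper-quartile scaling. That call was also lost with parental DTP replicates 5 and 6 left out together (0.149, adjusted p = 0.0534). SLC1A1 passed the filter only through the chemoresistant line, where it is higher. Its parental-line call, and its place in that count, carry this limit. SLC3A2, the heavy chain with which SLC7A11 pairs, overlapped between persister and other libraries in both lines. It averaged 196 FPKM in chemoresistant DTP and 165 in chemoresistant libraries (0.24, adjusted p = 0.0364), a call lost when any of 7 single libraries was left out (chemoresistant replicates 1, 4, 5 and 6, and chemoresistant DTP replicates 1, 2 and 4, with adjusted p between 0.0525 and 0.103). It averaged 199 FPKM in parental DTP and 167 in parental libraries (0.24, adjusted p = 0.0251), with estimates of -0.02 under relative log expression scaling (adjusted p = 0.871) and -0.17 under upper-quartile scaling (adjusted p = 0.214). That call was also lost without parental or parental DTP replicate 5 or 6 (adjusted p between 0.0518 and 0.0844).

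Of the named list genes, SLC1A4 had the largest ratio of means, 7.87 for parental DTP against parental libraries. Glutamate and glycine supply held the largest log2 fold change of FPKM + 1, in the same comparison. Of 9 tested genes, 3 were higher and 0 lower in chemoresistant DTP against chemoresistant libraries (median 0.09), and 6 higher and 1 lower in parental DTP against parental libraries (median 0.58). PSAT1, of serine synthesis, averaged 230 FPKM in parental DTP and 42.9 in parental libraries (2.39, adjusted p = 1.15e-19), GPT2, a mitochondrial alanine aminotransferase, 51.9 and 13.5 (1.87, adjusted p = 4.09e-20), and PSPH, the last enzyme of serine synthesis, 60.9 and 30.5 (0.97, adjusted p = 6.83e-14). Among 16 tested genes that use cysteine outside glutathione, 7 were higher and 5 lower in the chemoresistant line (median 0.01), and 9 higher and 3 lower in the parental line (median 0.25). CARS1, the cytosolic cysteinyl-tRNA synthetase, averaged 15.9 FPKM in parental DTP and 4.82 in parental libraries (1.53, adjusted p = 2.69e-19), TST, a mitochondrial sulfurtransferase, 7.83 and 3.38 (1, adjusted p = 6.64e-09), and GOT1, the cytosolic aspartate aminotransferase, 112 and 64.9 (0.78, adjusted p = 3.63e-14).

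Of 13 tested genes of the methionine cycle and methylthioadenosine salvage, upstream of CBS, 3 were higher and 3 lower in the chemoresistant line (median 0.1), and 5 higher and 4 lower in the parental line (median 0.13). MAT2B, a regulatory subunit of methionine adenosyltransferase, averaged 21.9 FPKM in chemoresistant DTP and 29.9 in chemoresistant libraries (-0.43, adjusted p = 3.07e-08), but 22.3 in parental DTP and 16.6 in parental libraries (0.4, adjusted p = 4.3e-08, and 0.01, adjusted p = 0.859, under upper-quartile scaling). MTAP, which starts the salvage of methylthioadenosine, averaged 5.82 FPKM in chemoresistant DTP and 4.27 in chemoresistant libraries (0.38, adjusted p = 0.000458). Of 7 tested genes of the gamma-glutamyl cycle, 2 were higher and 3 lower in the chemoresistant line (median 0.04), and 4 higher and 2 lower in the parental line (median 0.2). LAP3, a leucine aminopeptidase that can cleave cysteinylglycine, averaged 17.7 FPKM in chemoresistant DTP and 35.6 in chemoresistant libraries (-0.97, adjusted p = 1.48e-16). OPLAH, which opens 5-oxoproline to glutamate, averaged 11.9 FPKM in parental DTP and 6.92 in parental libraries (0.69, adjusted p = 6.31e-08), and GGACT, a gamma-glutamylamine cyclotransferase, 1.18 and 0.373 (0.67, adjusted p = 3.16e-10). In the chemoresistant line GGACT was lower, at 0.721 FPKM in chemoresistant DTP and 1.43 in chemoresistant libraries (-0.49, adjusted p = 1.2e-07). In each line only the higher group averaged 1 FPKM or more, so GGACT passed the filter only through groups where it is high. Its calls, and their place in the counts above, carry that limit.

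Of 9 tested glutathione transport genes, 2 were higher and 1 lower in the chemoresistant line (median -0.02), and 1 higher and 2 lower in the parental line (median 0.01). The export pumps ABCC2 and ABCC3 averaged 15.1 and 7.58 FPKM in chemoresistant DTP libraries, against 8.39 and 4.39 in chemoresistant libraries (0.77, adjusted p = 6e-08, and 0.67, adjusted p = 7.02e-07). ABCC3 averaged 0.917 FPKM in parental DTP and 1.23 in parental libraries (-0.22, adjusted p = 0.0273), with overlapping ranges and a call lost when any of 7 single libraries was left out (parental replicates 1, 2 and 3, and parental DTP replicates 1, 2, 3 and 4, with adjusted p between 0.0504 and 0.0725) or with no filter on low values (adjusted p = 0.0614). ABCC1, another export pump, averaged 56.7 FPKM in parental DTP and 33.7 in parental libraries (0.73, adjusted p = 5.96e-08). The counts of these lists are read beside the same backgrounds as above, 20.5% higher and 27.4% lower in the chemoresistant line and 45.8% higher and 19.7% lower in the parental line.

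**Figure D4:**
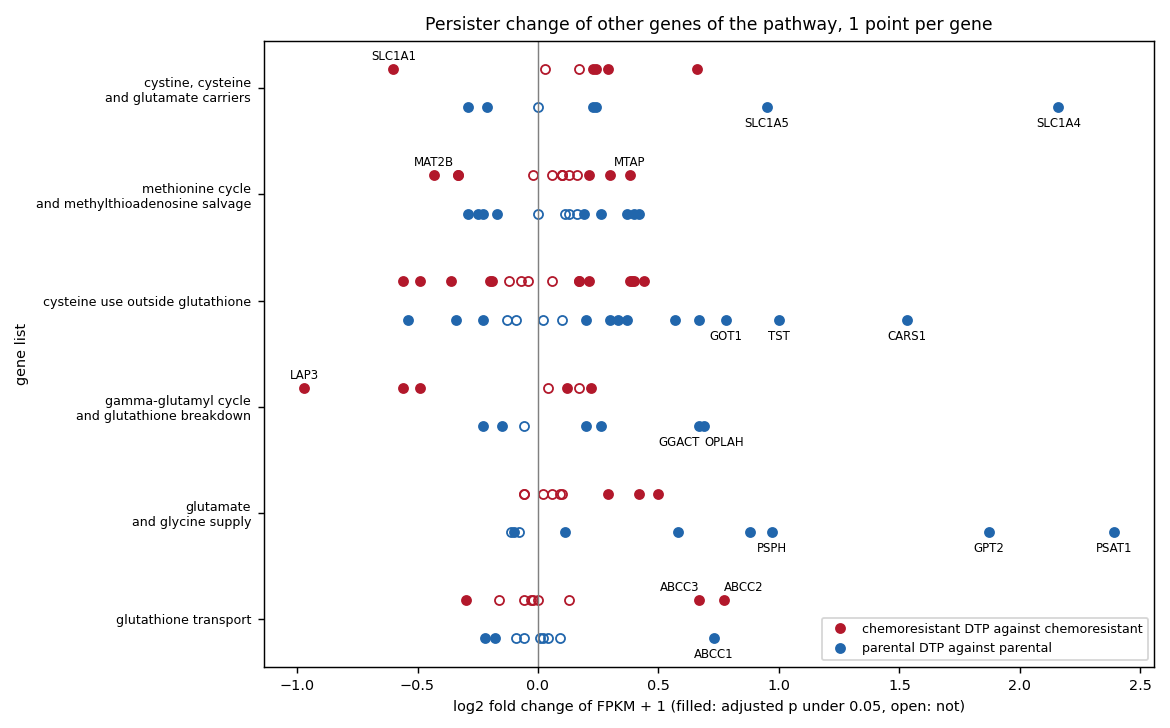
Log2 fold change of FPKM + 1 (horizontal axis) of the tested genes of each list, 1 point per gene, for chemoresistant DTP against chemoresistant (upper row of each list) and parental DTP against parental libraries (lower row). Filled points passed an adjusted p of 0.05, named genes are those given in the text, and the farthest points are PSAT1 at 2.39 and SLC1A4 at 2.16 in the parental line.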

How the data were processed

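RNA-seq libraries were made from total RNA extracted with TRIzol, by standard Illumina protocols, per the labels' protocols. The authors deposited FPKM values per gene for 24 libraries; per the submitters' processing notes the build was GRCh38, and the aligner, counter, strandedness and replicate pooling were not stated there or in the labels. FPKM does not correct for composition, so a few abundant genes can shift all others. Coordinates are from GENCODE release 29, matched by gene ID, which holds 95.24% of the IDs. The values came out as whole reads for 41101 of 41101 genes above 0 (tolerance 0.02 reads), and at 50 or more reads 99.84% of 22488 genes implied a whole length.

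The main test was limma 3.58.1 in R 4.3.3 with a mean-variance trend on log2(FPKM + 1), so fold changes of low genes are understated. One mean per group was fitted over 24 libraries for the 13729 genes that averaged 1 FPKM or more in any group, with Benjamini-Hochberg adjustment over all genes within each comparison and a threshold of 0.05. Gene-to-gene ratios were compared by exact permutation over 924 splits. The scripts were tested on simulated data. The members, the lists and the rule for named list genes (up to 3 per list with the largest called change in either persister comparison) were chosen with earlier results of these data known. A list gene that the rule names is not reported here. SLC3A2 was named outside that rule, as the partner of SLC7A11.

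Alternatives were the pseudocount, the filter, scaling, the libraries fitted, a replicate block, removal of each library's GC trend with that block, and left-out libraries. Added after the data were seen were limma's voom on the recovered reads with library totals and the sum of CBS and CBSL reads.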

Additional observations from a re-analysis of the deposited data

Results flagged for a closer look

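Chance alone marks about 1 in 20 groups of this size as holding a library that stands apart, and 3 of 36 were so marked, each by Dixon's test within a group of 6 libraries. The 36 share libraries between genes, so they are not independent. GSS was at 19.6 FPKM in chemoresistant DTP replicate 2, above the other 5 libraries of its group. That library also had the lowest relative log expression factor of its group, 0.932 against 1.01 to 1.06. It held the lowest SLC7A11 value of its group, 13.8 FPKM. Whether these go together was not tested. GSR was at 30.6 FPKM in chemoresistant DTP replicate 1, below the others. CHAC1 was at 1.46 FPKM in parental replicate 2, above the others.

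The persister change differed between the lines for 8 of the 9 genes by the interaction term of the limma fit, taken as the chemoresistant line minus the parental line. By that term, 20.5% of all genes tested were called positive and 43.4% negative. The difference in log2 fold change was 0.35 for GCLM, 0.85 for CHAC2 and 1.05 for GSR. It was -0.49 for GSS, -0.5 for CBS, -1.6 for SLC7A11, -2.54 for CTH and -3.16 for CHAC1. Those of GSS and CBS lost their calls under both other scalings, and that of GCLM lost its call when any of 12 single libraries was left out or with no filter on low values (0.347, adjusted p = 0.0785).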

How the results depend on the processing

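Of 2140 alternative values of the 9 genes over 7 comparisons, 2081 kept their direction and call. With the sign kept, 23 lost the call and 17 gained one. A further 19 changed sign, and some of these also lost or gained a call. Most of the 2140 alternatives leave out 1 library and share all others with the main fit, so they are not independent checks. Of 778 alternatives of 23 values of list genes, 750 kept both and 26 lost the call with the sign kept. The other 2 changed sign and also lost the call. These were SLC3A2 for parental DTP against parental, at -0.022 under relative log expression and -0.172 under upper-quartile scaling. Under upper-quartile scaling, sign changes gave CBS -0.007 for parental DTP against parental, -0.252 for chemoresistant against parental, -0.255 for chemoresistant DTP against parental and 0.004 for the difference of persister changes. The same scaling gave GSS 0.091 for chemoresistant DTP against chemoresistant, 0.018 for the difference and 0.03 for parental DTP against chemoresistant, and GCLM -0.267 for chemoresistant against parental. Relative log expression scaling gave GSS 0.025 for chemoresistant DTP against chemoresistant, GCLM -0.078 and CBS -0.058 for chemoresistant against parental, and CBS -0.127 for chemoresistant DTP against parental. The GCLC difference of persister changes was -0.034 with a pseudocount of 0.1 and -0.043 by voom on recovered reads, which was chosen after seeing the data, and ranged from -0.011 to 0.067 with 1 library left out. GSS for chemoresistant DTP against parental DTP ranged from -0.036 to 0.048 with 1 library left out. The cause of these changes was not tested.

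Upper-quartile scaling gave 4 of the 9 genes lower for chemoresistant against parental, where 7435 of all 13729 genes tested were lower. Both scalings gave 3 negative differences of persister changes. Over all genes, 3892 differences were negative under relative log expression and 2850 under upper-quartile scaling. The CHAC1 over CHAC2 log2 ratio for chemoresistant DTP against chemoresistant was 0.021 with a pseudocount of 1 and ranged from -0.09 to 0.094 with 1 library left out, and GCLC over GCLM for parental DTP against parental from -0.006 to 0.117. A filter at a mean of 5 FPKM tested 7540 genes and called 5012 for parental DTP against parental, 3932 for chemoresistant DTP against chemoresistant, 6020 for chemoresistant against parental, 4895 between the DTP groups, 4877 for the difference, 5253 for parental DTP against chemoresistant and 5775 for chemoresistant DTP against parental. No filter tested 41101 genes and called 16484 for chemoresistant against parental.

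With the replicate number as a block, 8965 genes were called for parental DTP against parental, against 8994 without it, no call of the 9 genes changed, among list genes only SLC3A2 for chemoresistant DTP against chemoresistant lost its call (adjusted p = 0.0531), and 5 of 24 libraries correlated best with their own number. Deviations of same-numbered libraries had r from -0.385 to 0.403 over 36 pairs, so the numbers were not taken to pair libraries. Removing the GC trend with the block added calls for GCLM (chemoresistant against parental, adjusted p = 0.0019) and CBS (parental DTP against chemoresistant, 0.172, adjusted p = 0.0351). This procedure leaves the estimates unchanged and narrows the spread without counting the removed terms, so no weight is put on these calls. Voom called 9046 genes for parental DTP against parental and 6573 for chemoresistant DTP against chemoresistant. The planned edgeR and DESeq2 fits were not run, since the deposited unit is FPKM. Depth limits CHAC1 and CTH in parental libraries, at 41 and 75 reads in the shallowest cases.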
